A study of Mus musculus with 6 samples.

Results

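Amino acid transporter genes were examined in an ATAC-seq series of mouse CD4 T cells, which maps open DNA by where the Tn5 transposase can insert adapters. The genes were chosen by symbol, as the protein-coding RefSeq genes of the Slc1a, Slc3a, Slc7a, Slc36a, Slc38a and Slc43a families. This gave 43 of 21900 protein-coding genes, one of which, Slc7a6os, is named after its neighbour Slc7a6 and encodes no transporter. All cells came from C57BL/6 mice, for which the labels state no age. The groups were untreated naive CD4+ T cells, and cells started from naive CD4+ T cells and kept for 48 h or 72 h under Th17 conditions in culture. Those conditions were 0.25 μg/mL of antibody to CD3ε, 1 μg/mL of antibody to CD28, 0.1 ng/mL of TGF-β and 20 ng/mL of IL-6. Peak names in the lists carry the letters WT and Ddx5, which the labels do not explain. Each condition has 2 libraries but 1 peak list was analysed per condition, so no spread between cultures can be given and no difference below has a replicate check or a p-value.

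Peaks of the 3 lists that overlapped by at least 1 bp were merged into 81315 regions, and 192 of these overlapped an amino acid transporter gene or the 10 kb on either side of it. Of the 43 genes, 38 had at least 1 region (88.4%), against 16632 of all protein-coding genes (75.9%). The transporter genes had a median of 5 regions each and all protein-coding genes a median of 3. A region is called gained when the later condition has a peak in it and the earlier has none, and lost in the opposite case. A missing peak means that none passed the authors' calling. Fewer cells with an open site and a less open site in every cell cannot be told apart in such lists. Regions are called below or above a gene, and gene ends lower or upper, by their coordinates on the chromosome and not by strand. Of the 192 regions, 4 lay at 2 transporter genes, 46 lay also within 10 kb of a gene outside these families, and 13 of those lay in the body of such a gene.

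Amino acids cross membranes through a small number of carrier families. The Slc7a light chains need an Slc3a heavy chain to reach the cell surface, with the exception of the cationic carriers such as Slc7a1. Slc7a5 with Slc3a2 brings in leucine and other large neutral amino acids, Slc1a5 and the Slc38a carriers bring in glutamine and other small neutral ones, and Slc7a11 exchanges cystine for glutamate. Activated T cells depend on these carriers for growth, and leucine and glutamine uptake feeds the kinase mTORC1, which Th17 differentiation requires. The lysosomal carriers of the Slc36a and Slc38a families return amino acids to the cytosol, and Slc38a9 reports lysosomal arginine to mTORC1.

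The labels could be set against marker genes. The 8 Th17 markers, among them Il17a and Ccr6, held 35 regions in naive cells, 51 at 48 h and 67 at 72 h. Il17a and Il17f stood at 0 in naive cells, and Rora held 19, 27 and 29 of the sum. Il23r went the other way, at 9, 5 and 7. The naive T cell markers Ccr7, Il7r, Klf2, Lef1, S1pr1 and Tcf7 held 53, 24 and 31 in sum, with Lef1 at 27, 9 and 15 and Klf2 at 2, 3 and 4, and the 7 pan T cell markers found in the gene table held 43, 31 and 40. Among 5 myeloid markers, Adgre1, Csf1r and Lyz2 stood at 0 throughout, and the other two, Itgam and Cd68, summed to 11, 5 and 5. The 5 B cell markers summed to 10, 8 and 11, with Ms4a1 at 0, the 5 CD8 and NK cell markers to 6, 6 and 6, with Ncr1 at 0, and the 3 erythroid markers to 3, 1 and 2, with Hbb-b1 at 0. The part of other cells in the results below was not tested. The naive list held 53259 peaks, the 48 h list 40624 and the 72 h list 53926, so a shorter list alone gives fewer regions at 48 h.

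The RefSeq promoter table of GRCm38.p6 holds the strand and start of 32 of the 43 genes, as windows of 250 bases before the start and 50 from it. In 13 of the 32, peaks of all 3 lists lay over such a window. These were Slc1a4, Slc3a2, Slc7a1, Slc7a6, Slc7a6os, Slc36a1, Slc36a4, Slc38a2, Slc38a6, Slc38a7, Slc38a9, Slc38a10 and Slc43a2. In another 13 no list had a peak there. The remaining 6 genes differed between lists. At Slc7a11, Slc38a11 and Slc43a1 the naive and the 72 h lists had a peak over the start and the 48 h list had none. A peak lay there for Slc1a1 and Slc1a6 at 72 h only, and for Slc7a8 in naive cells only. The 48 h peak nearest to the Slc43a1 start lay downstream of its window. Counted by list, the starts with a peak were 17 in naive cells (53.1%), 13 at 48 h (40.6%) and 18 at 72 h (56.2%). Over all 17492 genes with such a window these shares were 51.7%, 50.7% and 53.9%.

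The windows of the starts that differed are printed 5′ to 3′ on the strand of the gene, together with that of Slc1a4, a start with peaks in all 3 lists. Slc7a11 and Slc1a4 are shown first because their windows hold the letters TGATGNAA, the core of the C/EBP-ATF composite element through which ATF4 acts when amino acids are short. Capitals mark these letters, on either strand. The Slc7a11 window (chr3:50443564-50443863, minus strand) had 251 bases under the naive peak, 0 under a 48 h peak and 229 under the 72 h peak. The Slc1a4 window (chr11:20332664-20332963, minus strand) lay wholly under a peak in each list.
Slc7a11: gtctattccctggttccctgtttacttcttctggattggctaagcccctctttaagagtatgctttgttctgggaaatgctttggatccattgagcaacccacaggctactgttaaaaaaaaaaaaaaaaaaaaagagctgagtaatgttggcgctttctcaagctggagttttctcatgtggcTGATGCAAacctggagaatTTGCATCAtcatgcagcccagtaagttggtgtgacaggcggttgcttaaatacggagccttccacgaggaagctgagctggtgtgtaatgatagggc
Slc1a4: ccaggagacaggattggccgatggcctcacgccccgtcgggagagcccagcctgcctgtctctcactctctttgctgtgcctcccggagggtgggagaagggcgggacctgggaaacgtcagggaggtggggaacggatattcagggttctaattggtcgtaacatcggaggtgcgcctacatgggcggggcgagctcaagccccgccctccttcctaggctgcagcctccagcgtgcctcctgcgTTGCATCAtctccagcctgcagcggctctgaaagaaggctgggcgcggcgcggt

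The Slc7a11 window held the element at -66 to -59 and again, on the other strand, at -47 to -40, counted from the start. The Slc1a4 window held it at -4 to 3. Of the 43 windows of the 32 genes, 4 had a match (9.3%), the other two being overlapping windows of Slc7a7, against 3.97% of the 32851 windows in the table. The MYC E-box CACGTG was found in 7 of the 43 windows (16.3%, against 7.15% of all). Those 7 belonged to Slc1a6, Slc1a7, Slc7a14, Slc36a1, Slc38a5, Slc38a7 and Slc43a1. Slc1a6 and Slc43a1 follow with the E-box in capitals, at -32 to -27 and -64 to -59. The Slc1a6 window (chr10:78780246-78780545, plus strand) had 0 bases under naive and 48 h peaks and 235 under a 72 h peak. The Slc43a1 window (chr2:84840073-84840372, plus strand) had 149 bases under a naive peak, 0 under a 48 h peak and 86 under a 72 h peak.
Slc1a6: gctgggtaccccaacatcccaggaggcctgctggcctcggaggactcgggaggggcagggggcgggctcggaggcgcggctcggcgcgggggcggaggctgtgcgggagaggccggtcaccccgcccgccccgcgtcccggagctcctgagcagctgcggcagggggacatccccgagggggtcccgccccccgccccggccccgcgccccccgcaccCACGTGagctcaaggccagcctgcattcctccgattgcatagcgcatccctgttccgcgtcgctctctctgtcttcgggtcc
Slc43a1: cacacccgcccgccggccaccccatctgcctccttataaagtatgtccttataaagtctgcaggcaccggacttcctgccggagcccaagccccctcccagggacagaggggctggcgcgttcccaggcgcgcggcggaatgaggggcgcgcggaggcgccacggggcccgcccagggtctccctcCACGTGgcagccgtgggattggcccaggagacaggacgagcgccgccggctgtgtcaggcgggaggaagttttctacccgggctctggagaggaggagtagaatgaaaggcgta

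The remaining windows that differed held none of the 8 motifs searched, and capitals in them mark the bases under the peak. In Slc7a8 (chr14:54781837-54782136, minus strand) these are the 158 bases under the naive peak. In Slc38a11 (chr2:65363977-65364276, minus strand) they are the 125 bases under the naive peak, where the 72 h peak covered 135 bases of the window. In Slc1a1 (chr19:28834885-28835184, plus strand) the 72 h peak covered all 300 bases.
Slc7a8: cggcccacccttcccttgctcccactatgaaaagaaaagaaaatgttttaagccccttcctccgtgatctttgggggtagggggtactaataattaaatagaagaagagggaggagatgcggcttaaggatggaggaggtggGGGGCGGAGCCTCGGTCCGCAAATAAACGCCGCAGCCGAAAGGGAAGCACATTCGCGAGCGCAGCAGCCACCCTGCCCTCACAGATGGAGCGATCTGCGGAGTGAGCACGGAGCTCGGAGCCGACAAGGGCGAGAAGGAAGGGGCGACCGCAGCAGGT
Slc38a11: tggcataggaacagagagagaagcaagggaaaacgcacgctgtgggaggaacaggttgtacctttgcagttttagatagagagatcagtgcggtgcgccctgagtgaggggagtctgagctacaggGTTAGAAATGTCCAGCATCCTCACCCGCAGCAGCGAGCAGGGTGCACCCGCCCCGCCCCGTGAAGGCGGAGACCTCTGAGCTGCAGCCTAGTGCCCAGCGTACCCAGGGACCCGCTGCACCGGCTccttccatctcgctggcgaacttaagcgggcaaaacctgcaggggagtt
Slc1a1: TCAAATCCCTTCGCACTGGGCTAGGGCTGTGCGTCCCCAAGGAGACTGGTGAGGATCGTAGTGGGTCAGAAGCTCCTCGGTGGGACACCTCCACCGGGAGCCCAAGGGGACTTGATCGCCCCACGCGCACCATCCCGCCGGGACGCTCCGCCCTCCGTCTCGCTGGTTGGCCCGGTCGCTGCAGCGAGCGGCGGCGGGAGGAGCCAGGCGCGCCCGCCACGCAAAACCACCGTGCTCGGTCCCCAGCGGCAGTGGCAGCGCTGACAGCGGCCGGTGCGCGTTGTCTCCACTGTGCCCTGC

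The other motifs were searched on both strands too, each counted by itself so that matches may overlap. Of these, AP-1, STAT and the CCAAT box were near their shares over all windows. AP-1, written TGANTCA, was in 4 windows (9.3%, against 7.81% of all), STAT, written TTCNNNGAA, in 4 (9.3%, against 8.3%), and the CCAAT box in 15 (34.9%, against 37.4%). The TCF/LEF letters CTTTGAT were in 4 windows (9.3%, against 3.73%) and the ETS letters CCGGAAG in 7 (16.3%, against 8.86%). The ROR element TAGGTCA was in 0 (against 2.61%). TCF/LEF was thus found in as many windows as the C/EBP-ATF element, and ETS in as many as the E-box. All of these counts are small. These are matches of letters and not binding sites, and the windows of 1 gene can overlap.

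Set against naive cells, the transporter genes as a whole gained and lost regions at about the rate of the genome. At 48 h, 34 of their 94 regions were gained (36.2%, 95% interval 26.5 to 46.7%), against 38.8% of all 48 h regions. Of their 127 naive regions, 67 were lost at 48 h (52.8%, 43.7 to 61.7%), against 55.9% of all naive regions. At 72 h they gained 56 of 127 regions (44.1%, 35.3 to 53.2%), against 49.2% over the genome. They also lost 56 of 127 naive regions (44.1%, 35.3 to 53.2%), against 49.2% over the genome. Between the culture times, 51 of their 127 regions at 72 h were absent at 48 h (40.2%, 31.6 to 49.2%), against 39.4% of all, and 18 of their 94 regions at 48 h were absent at 72 h (19.1%, 11.8 to 28.6%), against 15.9% of all. In each of these comparisons the interval of the transporter genes, which covers counting error only, holds the share of the genome. The comparisons with naive cells share the naive list.

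**Figure D1:**
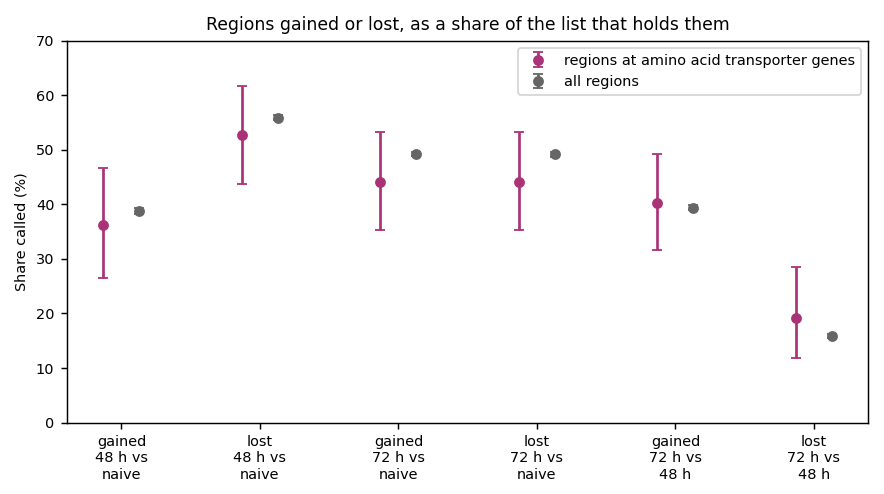
Share of regions gained or lost (%, y axis) in each comparison (x axis), for the regions at amino acid transporter genes and for all regions. Gained regions are a share of the first list named and lost regions a share of the second, bars are exact 95% binomial intervals, and each interval of the transporter genes holds the share of all regions, for example 36.2% against 38.8% for regions gained at 48 h.

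Counted by gene, 10 of the 38 transporter genes with a region had more gained than lost regions at 48 h (19.5% of all genes with a region did), and 21 had more lost than gained (49.1% of all). At 72 h, 17 had more gained than lost against naive cells (44.7%, 28.6 to 61.7%, against 33.9% of all). More lost than gained were counted at 16 (42.1%, 26.3 to 59.2%, against 36.6% of all). Equal numbers were counted at 7 genes at 48 h (18.4%, 7.74 to 34.3%, against 31.4% of all). At 72 h they were counted at 5 (13.2%, 4.41 to 28.1%, against 29.4% of all). The median difference between gained and lost was -1 region at 48 h and 0 at 72 h for the transporter genes, and 0 at both for all genes. Transporter genes with a region had a median of 5 regions, against 4 for all such genes, and these counts were not adjusted for that. From 48 h to 72 h, 22 had more gained than lost (57.9%, 40.8 to 73.7%, against 48.8% of all). More lost than gained were counted at 5 (13.2%, 4.41 to 28.1%, against 11.1% of all). Those 5 were Slc7a8, Slc7a13, Slc38a2, Slc38a7 and Slc38a9. At 72 h against naive cells, 11 had gains and no losses, 7 had losses and no gains, 16 had both and 4 had neither. This split was not counted over all genes, so it shows nothing particular to the transporter genes.

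**Figure D2:**
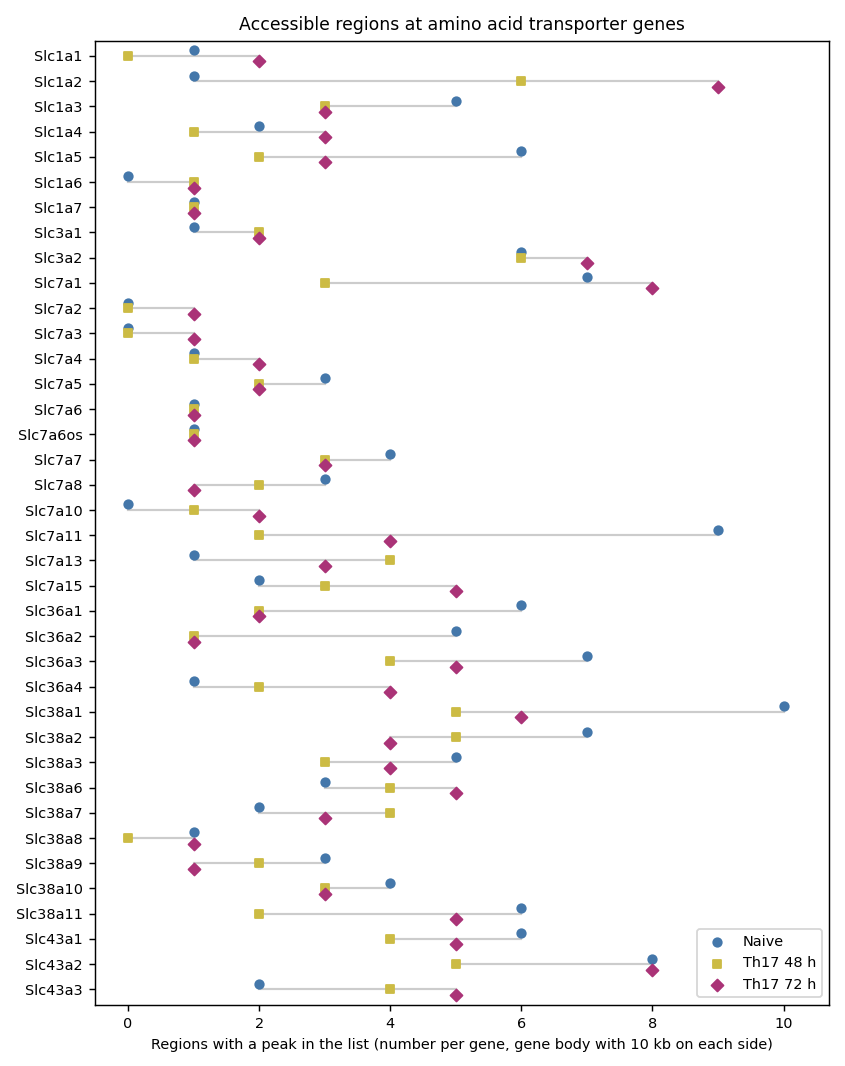
Number of regions with a peak in the naive, 48 h and 72 h lists (x axis) at each of the 38 amino acid transporter genes with a region (y axis). Slc1a2 had 9 regions at 72 h and 1 in naive cells, while Slc7a11 had 4 at 72 h and 9 in naive cells and Slc38a1 had 6 at 72 h and 10 in naive cells.

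The heavy chains kept nearly all of their regions. Slc3a2, which encodes CD98, had 6 regions in naive cells, 6 at 48 h and 7 at 72 h, of which 5 were present in all 3 lists. Its start region (chr19:8713729-8713958) was 215 bp wide in naive cells, 115 bp at 48 h and 168 bp at 72 h. The widest region, at the upper end of the gene (chr19:8722784-8723524), was 741, 618 and 587 bp wide. Its gains lay outside the gene and had low scores, 31 and 48 at 72 h, where the lowest score in the list is 30. Slc3a1, the heavy chain of kidney and gut, had 1, 2 and 2 regions, both below the gene and in the body of the phosphatase gene Ppm1b. The region gained at both times (chr17:85018956-85019350) lay 8997 bp from Slc3a1 and had a 72 h score of 186.

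Slc7a5, which encodes LAT1, the leucine carrier that pairs with Slc3a2, had 3 regions in naive cells, 2 at 48 h and 2 at 72 h. The number of regions does not show that a peak inside the gene was called wider at the later times. The region chr8:121898183-121898942, inside the gene, had a peak of 117 bp in naive cells, 690 bp at 48 h and 758 bp at 72 h, with scores of 202 and 224 at the later times. The naive peak lay within both later peaks. Over the 20812 regions with peaks in all 3 lists, the median width was 0.755 times the naive width at 48 h and 0.883 times at 72 h. At the Slc7a5 region these ratios were 5.90 and 6.48, and 0.0577% and 0.0865% of those regions had a ratio as high. They were the highest among the 51 such regions at transporter genes. The naive peak under these ratios was close to 100 bp, the narrowest width in each list. All peaks at Slc7a5 summed to 1421 bp in naive cells, 1411 bp at 48 h and 1378 bp at 72 h. The region at the upper end of Slc7a5 (chr8:121907214-121908251) was 979 bp wide in naive cells, 721 bp at 48 h and 620 bp at 72 h, which is 0.736 and 0.633 times the naive width, and 18.8% of regions with peaks in all lists had a ratio as low at 72 h. The lost region (chr8:121906507-121906831) was a naive peak of 325 bp that lay also within 10 kb of Car5a.

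The other light chains of the leucine and cationic exchangers gave small numbers. Slc7a6, which encodes y+LAT2, had a single region, over its start (chr8:106168403-106169646), with peaks summing to 1088 bp in naive cells, 1114 bp at 48 h and 1148 bp at 72 h, so that it did not narrow. Slc7a6os, next to it, had a single region as well, with peaks summing to 1340, 738 and 845 bp. Slc7a7, which encodes y+LAT1, had 4, 3 and 3 regions and no peak over any of its 5 annotated starts. Its broadest region (chr14:54360655-54361525), 871, 641 and 654 bp wide, lay 7917 bp below the gene, in the body of Oxa1l. Slc7a8, which encodes LAT2, had 3, 2 and 1 regions, and at its start the naive peak of 284 bp (chr14:54781711-54781994) was lost, while a 72 h peak of 222 bp with a score of 65 lay 420 bp away.

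Slc7a11 encodes xCT, which brings in cystine for glutathione synthesis, and it lost more regions than any other transporter gene in both comparisons. It had 9 regions in naive cells, 2 at 48 h and 4 at 72 h. At 48 h it had 1 gained and 8 lost regions, and 2.33% of all genes with a region had a difference as low. At 72 h it had 3 gained and 8 lost, and 2.71% of all genes were as low. Such shares of genes, here and below, rank raw differences and were not adjusted for gene length or number of regions. A gene with few regions cannot reach a large difference. Slc7a11 held 12 regions over 134152 bp, where genes with a region had a median of 4. Gained minus lost regions, -7 at 48 h and -5 at 72 h, lay between -14 and -2 and between -8 and 0 under the other settings tried. The values nearest to 0 came from joining peaks up to 500 bp apart. The start in the promoter table lies inside the gene body of the gene table. The region over the start (chr3:50443331-50443814) was 484 bp wide in naive cells, had no peak at 48 h, and was 337 bp wide with a score of 72 at 72 h. Beside it, the naive peaks at chr3:50443923-50444366 (444 bp), chr3:50442785-50442914 (130 bp) and chr3:50442503-50442621 (119 bp) were absent at both later times. Further along the gene, the naive peaks at chr3:50376031-50376659 (629 bp) and chr3:50388234-50388832 (599 bp) were absent at both times too. A region absent from naive cells (chr3:50402467-50402755) had a 48 h peak of 213 bp and a 72 h peak of 289 bp with a score of 173, which 17.3% of 72 h peaks reached.

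Slc7a1, the arginine and lysine carrier CAT1, had 7 regions in naive cells, 3 at 48 h and 8 at 72 h. At 48 h it had 0 gained and 4 lost regions and at 72 h 3 gained and 2 lost against naive cells, a balance that turned to -2 under 4 other settings, and from 48 h to 72 h it gained 5 and lost 0. Of all genes, 2.42% had a difference as high between the later times. The start region (chr5:148398716-148400405) was the broadest of the transporter genes, with peaks summing to 1599 bp in naive cells, 869 bp at 48 h and 1253 bp at 72 h. The naive peak at chr5:148388050-148388775, of 726 bp, was the widest naive-only peak at any transporter gene. Of the 3 gains at 72 h, 2 lay within 133 bp of a naive peak and all 3 had scores from 31 to 58. The relatives Slc7a2 and Slc7a3, also cationic carriers, had 1 region each, at 72 h only, with scores of 55 and 38. Slc7a4 had 1, 1 and 2 regions.

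Several Slc7a genes with roles in other tissues had regions in Th17 culture. Slc7a13, a kidney carrier of acidic amino acids, had 1 region in naive cells, 4 at 48 h and 3 at 72 h, all of them 1933 to 9363 bp above the gene and none inside it, so that without flanks it had none. The region chr4:19848489-19848754 had scores of 152 at 48 h and 157 at 72 h. Slc7a15 had 2, 3 and 5 regions with no losses. Gained minus lost at 72 h was 3, but 0 with a score minimum and 1 with wide peaks only. At 48 h the Slc7a15 balance was 1, but -1 with wide peaks only. Its region gained at both times (chr12:8571681-8572029) was 349 bp wide at 48 h and 300 bp at 72 h with a 72 h score of 72, and the region at 72 h only below the gene (chr12:8519530-8519808) scored 138. Slc7a10, the carrier Asc-1, had 0, 1 and 2. The Slc7a10 region chr7:35176737-35177079, 9016 bp from the gene, had the highest 72 h score of any region at a transporter gene that was absent from naive cells, 212, which 11.3% of 72 h peaks reached.

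**Figure D3:**
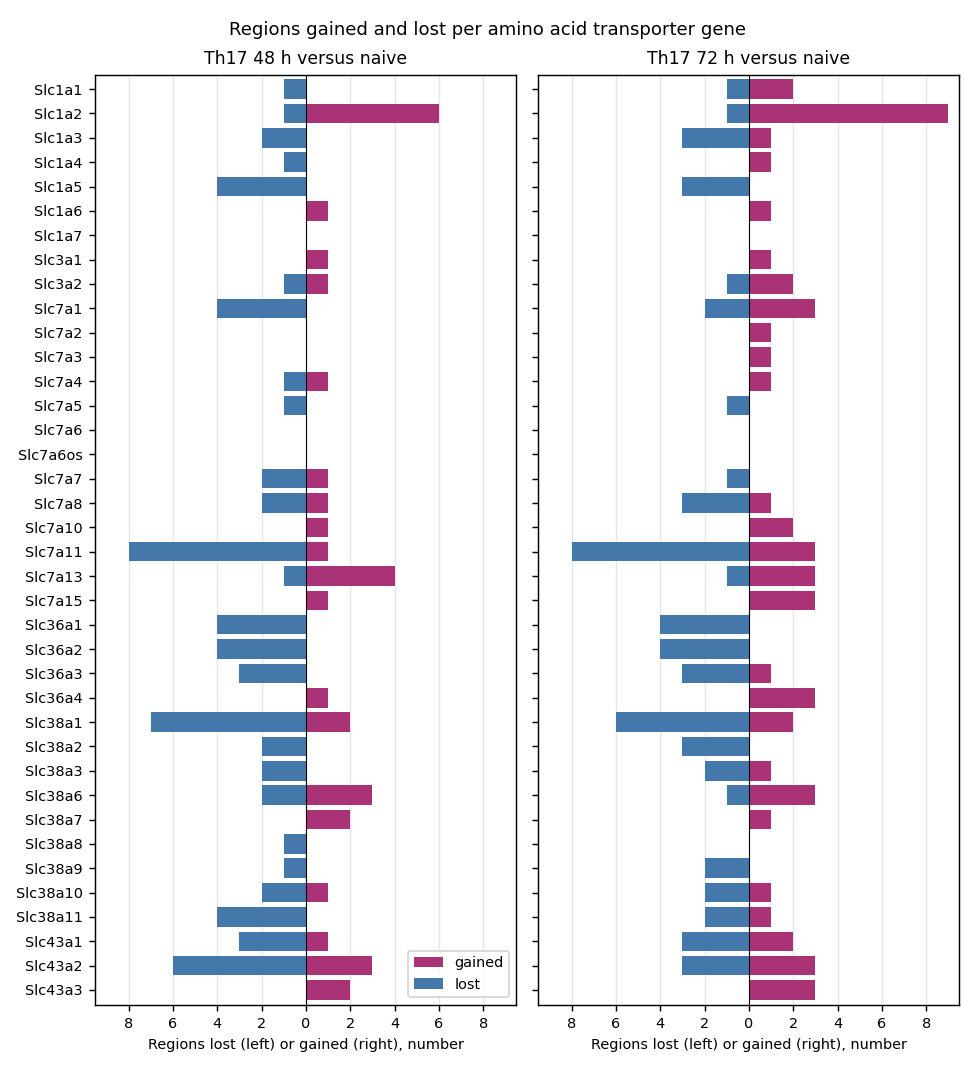
Regions gained (bars to the right) and lost (bars to the left) at each amino acid transporter gene with a region, at 48 h against naive cells in one panel and at 72 h against naive cells in the other. Slc1a2 had the most gains, 6 at 48 h and 9 at 72 h, and Slc7a11 the most losses, 8 at each time.

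In the Slc1a family the glutamine carrier and a glutamate carrier went opposite ways. Slc1a5, which encodes ASCT2, had 6 regions in naive cells, 2 at 48 h and 3 at 72 h, with 0 gained and 4 lost at 48 h and 0 gained and 3 lost at 72 h. Gained minus lost lay between -8 and -1 at 48 h and between -6 and -1 at 72 h under the other settings, nearest to 0 with wide peaks only or with neighbouring peaks joined. Its lower end carried a cluster of peaks. The region over that end (chr7:16781103-16781467) was 348 bp wide in naive cells, 298 bp at 48 h and 305 bp at 72 h. The inner region chr7:16783182-16783824 was 181, 275 and 597 bp wide, and the ratio of 3.30 at 72 h was reached by 1.11% of regions with peaks in all lists. Between these, naive peaks of 357 bp (chr7:16782237-16782593) and 152 bp (chr7:16782760-16782911) were absent at both later times, although a 72 h peak lay 223 and 317 bp from them.

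Slc1a2 encodes GLT-1, the main glutamate carrier of astrocytes, and it gained more regions than any other transporter gene. It had 1 region in naive cells, 6 at 48 h and 9 at 72 h. At 72 h it had 9 gained and 1 lost, and 0.445% of all genes with a region had a difference as high. At 48 h it had 6 gained and 1 lost, reached by 0.463% of genes. The gene is long, with 11 regions over 132546 bp, and these shares were not adjusted for that. Gained minus lost, 5 and 8, lay between 2 and 6 and between 4 and 9 under the other settings. All of these regions lay inside the gene (chr2:102658239-102790784), and none lay over the annotated start window. The gene is on the plus strand, and that start lies 48199 bp from the lower end of the gene body. A peak at 72 h only (chr2:102658808-102659067, score 43) lay 569 bp inside that lower end. Of the 9 regions at 72 h, 5 were present at 48 h. The highest 72 h score, 190, was at chr2:102701362-102701844, with 354 bp at 48 h and 483 bp at 72 h. The region chr2:102725144-102725404, present at 72 h only, had a score of 168, and chr2:102713318-102713657 and chr2:102733004-102733594 had 72 h scores of 157 and 151.

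Slc1a4, which encodes the serine carrier ASCT1, had 2 regions in naive cells, 1 at 48 h and 3 at 72 h. Its start region (chr11:20332107-20333461) was 1355 bp wide in naive cells, 977 bp at 48 h and 939 bp at 72 h. Slc1a3, the glutamate carrier GLAST, had 5, 3 and 3 regions, of which the naive peak of 215 bp nearest to its start (chr15:8710319-8710533) was lost. Slc1a1, a glutamate and cysteine carrier, had 1, 0 and 2, with the 72 h start peak of 481 bp (chr19:28834830-28835310) at a score of 88. Slc1a6 had 0, 1 and 1 and Slc1a7 1, 1 and 1. At Slc1a6 the 48 h peak (chr10:78780550-78780651) and the 72 h peak (chr10:78780185-78780480) lay 70 bp apart, each scored 37 in its own list, and both lay in the body of Ccdc105 as well.

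**Figure D4:**
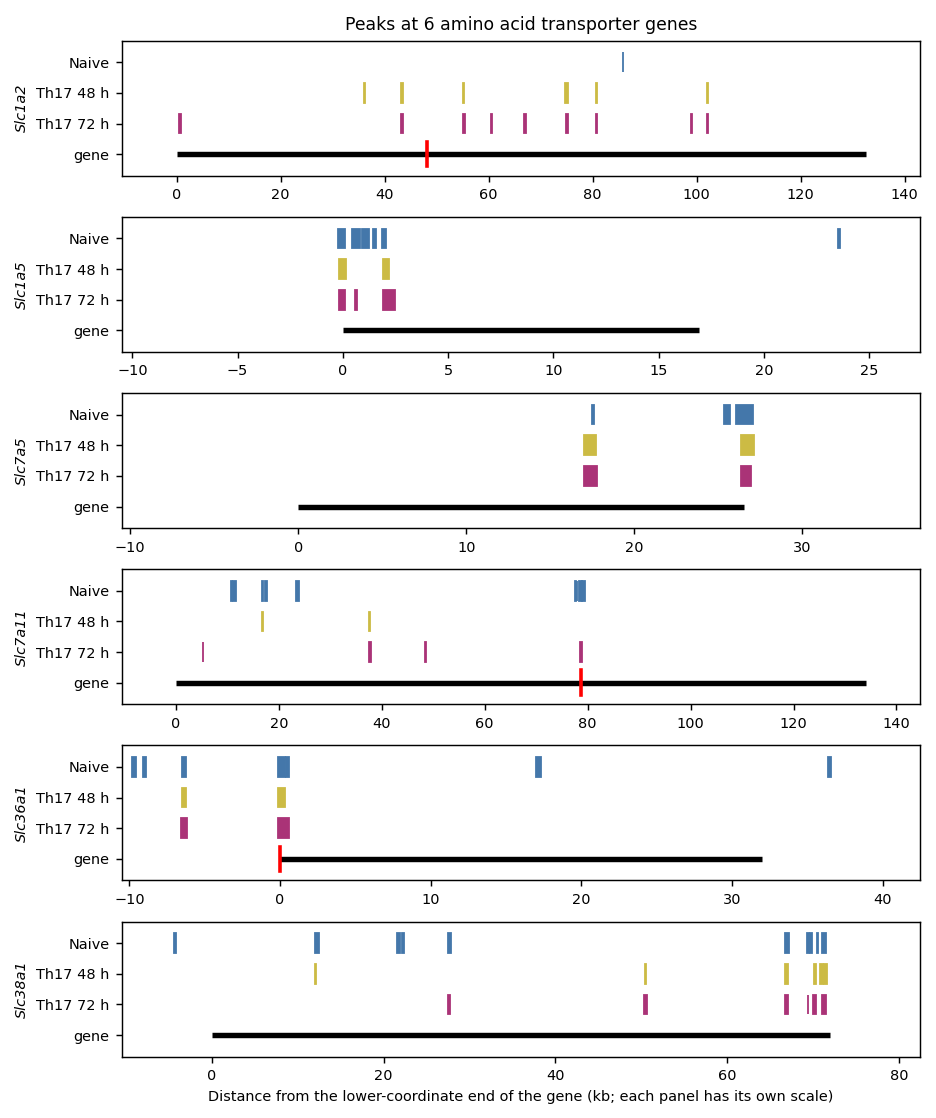
Peaks of the naive, 48 h and 72 h lists at 6 amino acid transporter genes, by distance from the lower-coordinate end of the gene (x axis, kb), with the gene as a black bar and its annotated start, where known, in red. Narrow peaks are drawn with a minimum line width. Slc1a2 had 9 regions at 72 h and 1 in naive cells, and the inner Slc7a5 peak was 758 bp wide at 72 h and 117 bp in naive cells.

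The sodium-coupled Slc38a carriers held 41 regions in naive cells, 28 at 48 h and 32 at 72 h, with 8 gained and 21 lost at 48 h and 9 gained and 18 lost at 72 h. The lost shares were 51.2% of their naive regions at 48 h and 43.9% at 72 h, against 55.9% and 49.2% of all naive regions. The gained shares were 28.6% at 48 h and 28.1% at 72 h, against 38.8% and 49.2% of all. In the other families the gained shares at 48 h and 72 h were 50% and 63.6% (Slc1a), 43.5% and 52.9% (Slc7a) and 46.2% and 44.4% (Slc43a). They were 25% and 33.3% for Slc3a and 12.5% and 33.3% for Slc36a. Shares by family rest on few regions and have no intervals here. Slc38a1, the glutamine carrier SNAT1, had 10, 5 and 6 regions. It had 2 gained and 7 lost at 48 h, which 5.24% of genes matched, and 2 gained and 6 lost at 72 h, which 4.68% matched. With peaks up to 500 bp apart joined, gained minus lost was -2 at both times, against -5 and -4. Near the upper end of the gene, peaks of the lists interleaved. A region at chr15:96641474-96641795 had 48 h and 72 h peaks of 239 and 317 bp, and naive peaks of 257 bp (chr15:96641108-96641364) and 146 bp (chr15:96641887-96642032) lay 110 and 97 bp from the 72 h peaks nearest to them. A separate region, chr15:96621789-96622067, was absent from naive cells and had a 72 h peak of 279 bp with a score of 141.

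Slc38a2, which encodes SNAT2, the carrier that cells make more of when amino acids are short, had 7, 5 and 4 regions with no gains. Gained minus lost, -2 at 48 h and -3 at 72 h, was 0 at both times without flanks, -6 at both with flanks of 50 kb, and -7 and -6 by nearest gene. Its start region (chr15:96699653-96699986) was 334 bp wide in naive cells, 279 bp at 48 h and 224 bp at 72 h, and the region just inside the gene (chr15:96698709-96699457) was 749, 616 and 674 bp. Slc38a11 had 6 regions in naive cells, 2 at 48 h and 5 at 72 h, and 2 of its regions, among them the start, lacked a peak at 48 h alone. Their 72 h scores were 52 and 46, and the region gained at 72 h scored 31, in a list with a median of 76. Slc38a3, the glutamine carrier SNAT3 of liver and brain, had 5, 3 and 4, and its widest region (chr9:107675738-107676652), 915 bp in naive cells and 142 bp at 48 h, had no peak at 72 h and lay 6770 bp above the gene, in the body of Gnat1.

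Among the lysosomal members of the family, Slc38a9, the arginine sensor of mTORC1, had 3, 2 and 1 regions. Its start region (chr13:112660389-112661361) had peaks summing to 875 bp in naive cells, 747 bp at 48 h and 860 bp at 72 h, and the 2 regions inside the gene were the ones lost by 72 h. Slc38a7, a lysosomal glutamine carrier, had 2, 4 and 3. Its region chr8:95852333-95852723, 963 bp inside the start, was absent from naive cells and had 48 h and 72 h peaks of 162 and 391 bp with a 72 h score of 165. The genes that follow, Slc38a6, Slc38a10 and Slc38a8, are not counted among these lysosomal carriers. Slc38a6 had 3, 4 and 5 regions, and its start region (chr12:73286418-73287377) was 960, 639 and 850 bp wide. Slc38a10 had 4, 3 and 3. Its start region (chr11:120151007-120151629) was 435, 623 and 448 bp wide, and a naive peak of 487 bp that lay 70 bp from the 48 h peak and 201 bp from the 72 h peak was lost. Slc38a8 had 1, 0 and 1.

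The genes of the proton-coupled Slc36a carriers lie on chromosomes 11 and 9. Slc36a1, Slc36a2 and Slc36a3 lie side by side on chromosome 11 and share 4 regions. Together they held 15 regions, of which 14 were present in naive cells, 6 at 48 h and 8 at 72 h, with 0 gained and 8 lost at 48 h and 1 gained and 7 lost at 72 h. The lost shares, 57.1% at 48 h and 50% at 72 h, were close to those of all naive regions, 55.9% and 49.2%. The gained shares were 0% of 6 regions at 48 h and 12.5% of 8 at 72 h, against 38.8% and 49.2% of all. With Slc36a4 counted in, they were 12.5% of 8 regions at 48 h and 33.3% of 12 at 72 h. Without flanks gained minus lost was -1 at Slc36a1 and at Slc36a2 at both times, against -4. Slc36a1, the lysosomal carrier PAT1, had 6, 2 and 2 regions, and its start region (chr11:55204183-55204937) had peaks summing to 638, 417 and 733 bp. Slc36a2 had 5, 1 and 1. Slc36a3 had 7, 4 and 5, and its inner region chr11:55130989-55131622 was 331 bp wide in naive cells, 390 bp at 48 h and 634 bp at 72 h. Slc36a4, on chromosome 9, had 1, 2 and 4 regions with no losses. Its start region (chr9:15709046-15710531) had peaks of 1486, 561 and 896 bp, and the 3 inner gains had 72 h peaks of 100, 117 and 159 bp with scores of 51, 59 and 39, all under the median of 76. With flanks of 50 kb its balance at 48 h was -1, against 1. At 72 h its balance was 3, but 0 with wide peaks only or with a score minimum, and 1 with equal numbers of peaks.

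The Slc43a family held 16 regions in naive cells, 13 at 48 h and 18 at 72 h. Slc43a2, the leucine carrier LAT4, had 8, 5 and 8 regions, with 3 gained and 6 lost at 48 h and 3 gained and 3 lost at 72 h. Its start region (chr11:75531383-75532232) had peaks summing to 625, 627 and 843 bp, and of its regions gained at both times the one with the highest 72 h score (chr11:75564251-75564477) had 155 bp at 48 h and 227 bp with a score of 115 at 72 h. Slc43a1, the related carrier LAT3, had 6, 4 and 5, and its widest naive-only peak (chr2:84837860-84838276), of 417 bp, lay below the gene and within 10 kb of Timm10 as well. Slc43a3, which is known as a carrier of purine nucleobases rather than of amino acids, had 2, 4 and 5 regions with no losses. Its gained region chr2:84938332-84938857 had peaks of 526 bp at 48 h and 490 bp at 72 h, with scores of 150 and 106, and chr2:84939808-84940045 had 114 bp at 48 h and 238 bp with a score of 127 at 72 h. With flanks of 50 kb its balance turned to -1 at both times, against 2 and 3.

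Slc7a9, Slc7a12, Slc7a14, Slc38a4 and Slc38a5 had 0 regions in every list. A peak list gives no limit on how open these genes were.

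Regions over a start window or a gene end were mostly shared by all lists. Of the 26 such regions at transporter genes, 18 had peaks in all 3 lists (69.2%, 95% interval 48.2 to 85.7%), against 81.8% of 11834 such regions over the genome. Of the 166 regions elsewhere, 33 did (19.9%, 14.1 to 26.8%), against 16% over the genome. None of the 26 was gained at both 48 h and 72 h, against 4.73% over the genome, while 25 of the 166 were (15.1%, 9.99 to 21.4%), against 14.6%. Of the 51 regions with peaks in all lists, 12 were wider at 48 h than in naive cells and 14 wider at 72 h (23.5% and 27.5%), against 20.4% and 32.3% over the genome. The median ratio to the naive width was 0.725 at 48 h and 0.856 at 72 h, against 0.755 and 0.883 over the genome.

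**Figure D5:**
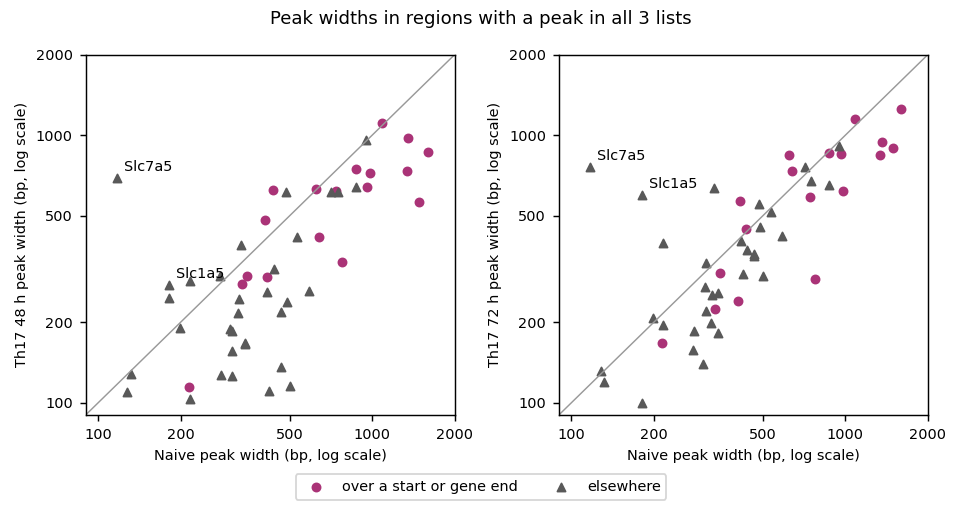
Peak width at 48 h and at 72 h (y axes, bp, log scale) against the naive peak width (x axes, bp, log scale) in the 51 regions at amino acid transporter genes with peaks in all 3 lists, with the line of equal widths. Most points lie under the line, and the inner regions of Slc7a5 (758 bp at 72 h, 117 bp in naive cells) and Slc1a5 (597 bp at 72 h, 181 bp in naive cells) lie far above it at 72 h.

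By pattern, 51 of the 192 regions were in all 3 lists (26.6%, against 25.6% of all regions), 47 in naive cells only (24.5%, against 28.8%), 25 at both culture times and absent from naive cells (13%, against 13.1%) and 31 at 72 h only (16.1%, against 18.3%). A further 20 lacked a peak at 48 h alone (10.4%, 6.48 to 15.6%, against 6.86%), and their median 72 h score was 46. The last 18 were 9 at 48 h only (4.69%, against 4.73%) and 9 that lacked a peak at 72 h alone (4.69%, 2.17 to 8.71%, against 2.57%). Of the 56 regions gained at 72 h, 25 were present at 48 h (44.6%, against 41.8% over the genome). The regions gained at both times had a median 72 h score of 106, against 91 over the genome. Of the 56 regions lost at 72 h, 12 had a 72 h peak within 500 bp (21.4%, 11.6 to 34.4%), against 15.4% over the genome, and lost peaks beside the starts of Slc7a11 (chr3:50443923-50444366, 131 bp away), Slc38a2 (34 bp), Slc38a10 (201 bp) and Slc43a1 (17 bp) were among them.

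Other genes of amino acid use were counted in the same way. At the 23 genes with a region among 25 carriers of other Slc and sideroflexin families, 41 of 80 regions at 72 h were gained (51.2%). Sfxn1, a mitochondrial serine carrier, had 1 region in naive cells, 5 at 48 h and 4 at 72 h, and Slc16a10, a carrier of aromatic amino acids, had 11, 8 and 7. At the 32 genes of mTORC1 and lysosomal sensing, 52 of 121 regions at 72 h were gained (43%), with Fnip2, a folliculin partner, at 1, 4 and 7 regions and Rptor, the mTORC1 subunit raptor, at 9, 9 and 12. These shares were 24.2% at the 14 genes of the amino acid response, 30.6% at the 15 genes of serine, asparagine and proline synthesis, 32.1% at the 18 genes of glutamine, arginine and branched-chain use and 22.4% at the 20 aminoacyl-tRNA synthetase genes, against 49.2% of all regions at 72 h. The shares of naive regions lost at 72 h were also under that of all naive regions, 49.2%, in each of the 6 lists, at 43.5% for the other carriers, 36.1% for the sensing genes, 37.5% for the response genes, 35.8% for the synthesis genes, 40.6% for the use genes and 33.8% for the synthetases. Over the genome, 81.8% of regions over a start window or a gene end had peaks in all 3 lists, against 16% of those elsewhere. How many regions of each gene list were of that kind was not counted, so their part in these low shares was not tested. In the amino acid response, Eif2ak3, which encodes the kinase PERK, had 7, 3 and 2 regions. Shmt2, which makes glycine from serine, had 8, 3 and 5, and Bcat1, the cytosolic branched-chain aminotransferase, had 7, 2 and 5. Mthfd1l, in the synthesis list, had 9, 2 and 3. The genes named from these lists are examples whose gained and lost regions differed by 3 or more in a comparison. Others that did so are not named.

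By gene, more gained than lost regions at 72 h against naive cells were counted at 11 of the 23 other carriers, 11 of the 32 sensing genes, 3 of the 14 response genes, 5 of the 15 synthesis genes, 5 of the 18 use genes and 4 of the 20 synthetase genes (33.9% of all genes with a region). More lost than gained were counted at 6, 10, 4, 4, 10 and 10 of them (36.6% of all).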

How the data were processed

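Per the submitters' processing notes, MACS2 2.2.6, Bowtie2 2.3.4.1, deepTools and SAMtools 1.9 were used, on GRCm38/mm10. The sources used here do not give the calling threshold, any Tn5 shift, how duplicates were treated or whether libraries were pooled. The lists the authors deposited give coordinates and a name for each peak. For 48 h and 72 h the deposited lists add a score, a whole number whose scale is not stated, and it was compared within 1 list only. A naive line without values was dropped (1 line). Read depth is unknown.

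Peaks were merged at 1 bp of overlap and assigned to genes of the RefSeq GRCm38.p6 table with flanks of 10 kb, in Python 3.11.15 with scipy 1.17.1. Widths in a region sum its peaks of 1 list. Intervals are exact Clopper-Pearson 95% and cover counting error only. Merging and counting were run on simulated lists, where peaks of 1 region always overlapped and regions lay well apart. Peaks of different lists lying side by side were not simulated. Members, gene lists and motifs were chosen with earlier results of these data known. Genes were given in full when they are known carriers of activated T cells, had 4 or more regions, or had gained and lost regions differing by 3 or more. Slc1a4 was printed after its window was seen. Coordinates are 1-based, and "lower" and "upper" ends refer to them. A naive T cell marker is not reported here, and the sum over that list was taken without it.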

Additional observations from a re-analysis of the deposited data

How the results depend on the processing

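Counts over the transporter genes stayed within 1.5 times their values in 43 of 60 cases over 10 other settings, 2 of them chosen after seeing the data (without Slc7a6os, and joining peaks up to 500 bp apart). With flanks of 50 kb, gained and lost regions numbered 52 and 124 at 48 h and 87 and 100 at 72 h against naive cells, and 87 and 28 at 72 h against 48 h. With only the wider peaks kept, those reaching their own list's median width, gains were 16 at 48 h, 26 at 72 h and 26 from 48 h to 72 h, and losses from 48 h to 72 h were 7. With a median score minimum at 48 h and 72 h and a median width minimum in naive cells, gains were 17, 25 and 25 in the same comparisons, losses at 72 h against naive cells 37 and losses from 48 h to 72 h 8. With each list limited to its 40624 widest peaks, 29 regions were gained from 48 h to 72 h, against 51, and with peaks up to 500 bp apart joined 36 were lost at 72 h against naive cells, against 56. Fewer or more peaks and wider windows change such counts by construction. The balance of gained minus lost regions at single genes stayed within 1.5 times its value in 201 of 294 cases over 15 genes. In 81 cases it moved further without a turn of sign, and in 12 it turned sign. It became -1 at 48 h with flanks of 50 kb at Slc36a4 and Slc43a3, by nearest gene at Slc36a4, and with wide peaks only at Slc7a15. At 72 h it became -1 at Slc43a3 (50 kb), 1 (50 kb, equal numbers) or 2 (nearest gene) at Slc38a11, and -2 at Slc7a1 (50 kb, nearest gene, wide peaks, score minimum). No paired analysis was possible because each condition has 1 peak list here, and for the same reason no replicate could be left out.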
